A study of Mus musculus with 4 samples.

Results

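The miR-15/16 family is a set of related miRNAs from 3 gene pairs, and 6 of its members were examined among the 869 miRNAs found in any sample. They were chosen by name and comprised 5 guide strands (miR-15a-5p, miR-15b-5p, miR-16-5p, miR-195a-5p and miR-497a-5p) and miR-15b-3p, the opposite arm of the miR-15b precursor. All 6 were detected in all 4 samples. The samples were C2C12 myotubes, formed by a mouse skeletal myoblast line given the strain background 129/Rej in the labels, on day 6 in a low-serum differentiation medium. The medium contained no guanidinoacetic acid in the negative control (NC, 2 samples) and 20 mM guanidinoacetic acid (GAA, 2 samples), a precursor of creatine, in the treated group. Both groups were otherwise cultured alike. Each sample is bulk RNA, in which fewer cells of a type and less RNA per cell cannot be told apart. C2C12 is a single cell line, and nothing in the labels or the study's methods says whether the 2 samples of a group came from separate cultures, so that p-values measure only the spread between these samples.

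A miRNA is cut from a hairpin precursor and its guide strand is loaded into an Argonaute protein, where bases 2 to 8, the seed, select target mRNAs. The guides of the miR-15/16 family share their seed and are known for repressing cyclins and cyclin-dependent kinases, among them cyclin D1, and thereby for restraining entry into the cell cycle. miR-195 and miR-497 are also known for promoting the quiescence of muscle stem cells. The other strand of a hairpin is mostly degraded, and its reads give a measure of the output of one precursor. Myoblasts leave the cell cycle before they fuse into myotubes.

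The mature sequences are shown because the shared seed and the differing remainder define the paralogs. They were taken from RefSeq (GRCm38.p6), are written 5′ to 3′ and carry the seed in capitals.
miR-15a-5p: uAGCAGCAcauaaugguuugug
miR-15b-5p: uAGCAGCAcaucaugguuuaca
miR-16-5p: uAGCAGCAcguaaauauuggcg
miR-195a-5p: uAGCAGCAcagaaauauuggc
miR-497a-5p: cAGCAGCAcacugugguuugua
miR-15b-3p: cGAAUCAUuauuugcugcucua
All 5 guides have the same 7 seed bases, whereas miR-15b-3p has a different seed. Compared base by base from the 5′ end without gaps, miR-16-5p and miR-195a-5p were the most alike, with 19 of 21 bases identical. miR-15a-5p and miR-15b-5p shared 18 of 22 bases. miR-16-5p and miR-497a-5p shared 11 of 22 bases, of which only 4 lay outside the first 8. In the RefSeq table, 10 of 1679 mature miRNAs carry this seed, and 7 of the 10 were detected.

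The guides come from 3 places in the genome (GRCm38). Mir15b, at chr3:69009772-69009835, and Mir16-2, at chr3:69009902-69009996, lie 66 bases apart on the plus strand within an intron of Smc4, a condensin subunit that compacts chromosomes in mitosis. Mir15a, at chr14:61632027-61632110, and Mir16-1, at chr14:61631880-61631972, lie 54 bases apart on the minus strand within the non-coding gene Dleu2, the first in an intron and the second over an exon of at least 1 of its transcripts. Mir497, at chr11:70234717-70234800, and Mir195a, at chr11:70235042-70235135, lie 241 bases apart on the plus strand, and Mir497 overlaps Mir497b on the opposite strand. The mature miR-16-5p is identical from Mir16-1 and Mir16-2, so its reads cannot be assigned to one of them.

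Values were deposited as log2(RPM + 1), where RPM is the reads of a miRNA per 1000000 mappable reads of the sample, and a level here is RPM unless a share is named. The mappable reads numbered 4732359 to 5657704, and the reads of known miRNAs 1653803 to 3134241, with more in both GAA samples than in both NC samples. miRNA reads made up 33.6% and 43.6% of the mappable reads in NC and 56.3% and 50.4% in GAA, so that RPM and the share of miRNA reads give different group differences, and both are reported. Where 2 values are given for a group, they stand in the order of sample 1 and sample 2. The myotube label was compared with 3 muscle miRNAs, and other muscle miRNAs were left out of this comparison. miR-206-3p, which is particular to skeletal muscle, measured 494 and 553 RPM in NC and 406 and 355 RPM in GAA. miR-133a-3p measured 3059 and 3787 RPM in NC against 2251 and 2409 RPM in GAA, and miR-1a-3p 34.3 and 46.1 RPM against 27.1 and 19.3 RPM. All 3 muscle miRNAs were thus present in every sample and lower in both GAA samples, an order held in RPM by 5.52% of all 869 miRNAs. The study had already reported miR-133a-3p and miR-1a-3p as lower with GAA from these samples. Their order was thus known before they were chosen and is not a separate observation. Their part in the values of the family was not tested. A floor of 3 reads corresponds to at most 0.634 RPM. Of the 869 miRNAs, 323 reached 10 reads in each sample and are called the well-covered miRNAs. The 3 muscle miRNAs belong to these, of which 2.79% were lower in both GAA samples in RPM.

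miR-16-5p was by far the most abundant paralog. Its level was 3976 and 4699 RPM without GAA and 7624 and 6335 RPM with GAA. Both GAA samples lay above both NC samples, with means of 6980 ± 912 RPM (SD, n = 2) in GAA and 4338 ± 511 RPM (SD, n = 2) in NC. It ranked between 10 and 15 among the miRNAs of each sample. Behind these values lay 19582.5 and 22238 reads in NC and 42440.5 and 35840.5 reads in GAA. It was the only member with reads that were not whole. Of 49 such miRNAs, 26 of the 34 found in the RefSeq table have more than 1 precursor, against 13 of 683 miRNAs with whole reads. How the reads of the precursors were combined is not given in the sources used here, so that the level of miR-16-5p relative to the single-precursor guides is uncertain to that extent.

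miR-15b-5p, the neighbour of miR-16 on chromosome 3, was the next most abundant guide, with 314 and 404 RPM in the NC samples against 545 and 406 RPM in the GAA samples. The GAA values again lay above the NC values, but GAA-2 exceeded NC-2 by little. miR-15a-5p, the neighbour of miR-16 on chromosome 14, measured 194 and 189 RPM in NC, compared with 295 and 297 RPM in GAA. Relative to the group mean, its replicates were the closest of all members in RPM. The groups did not overlap, at 192 ± 3.4 RPM (SD, n = 2) and 296 ± 1.3 RPM (SD, n = 2). Both GAA samples lay above both NC samples in RPM for 64.4% of the well-covered miRNAs. In shares of miRNA reads the groups of miR-15a-5p overlapped.

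The chromosome 11 pair was less abundant. For miR-195a-5p the NC levels of 68.0 and 89.6 RPM lay below the GAA levels of 110.1 and 96.2 RPM, and the groups did not overlap. For miR-497a-5p they were 27.0 and 44.4 RPM in NC against 32.9 and 38.5 RPM in GAA. It was the one member whose groups overlapped in RPM, since both GAA values lay between the NC values, and its group means were 35.7 RPM in both groups. With 133 to 218 reads per sample, it was also the least abundant guide. miR-15b-3p, the opposite arm of miR-15b, stood at 25.2 and 28.1 RPM in NC and at 50.7 and 41.0 RPM in GAA, without overlap between the groups.

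The order of the guides by level was miR-16-5p, miR-15b-5p, miR-15a-5p, miR-195a-5p and miR-497a-5p, and it was the same in each of the 4 samples. A read covers a whole mature miRNA and all 5 are 21 or 22 bases long, so no scaling by length was made. How fully each miRNA was captured when adaptors were ligated was not measured, so the order is that of reads. miR-16-5p exceeded miR-15b-5p by 11.6- to 15.6-fold. The smallest step was from miR-15b-5p to miR-15a-5p, at 1.37- to 2.13-fold. miR-15a-5p exceeded miR-195a-5p by 2.11- to 3.09-fold, and miR-195a-5p exceeded miR-497a-5p by 2.02- to 3.35-fold. Within every sample each neighbour in this order was therefore separated, and the smallest step averaged 0.78 ± 0.27 (SD, n = 4) on the log2 scale.

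**Figure D1:**
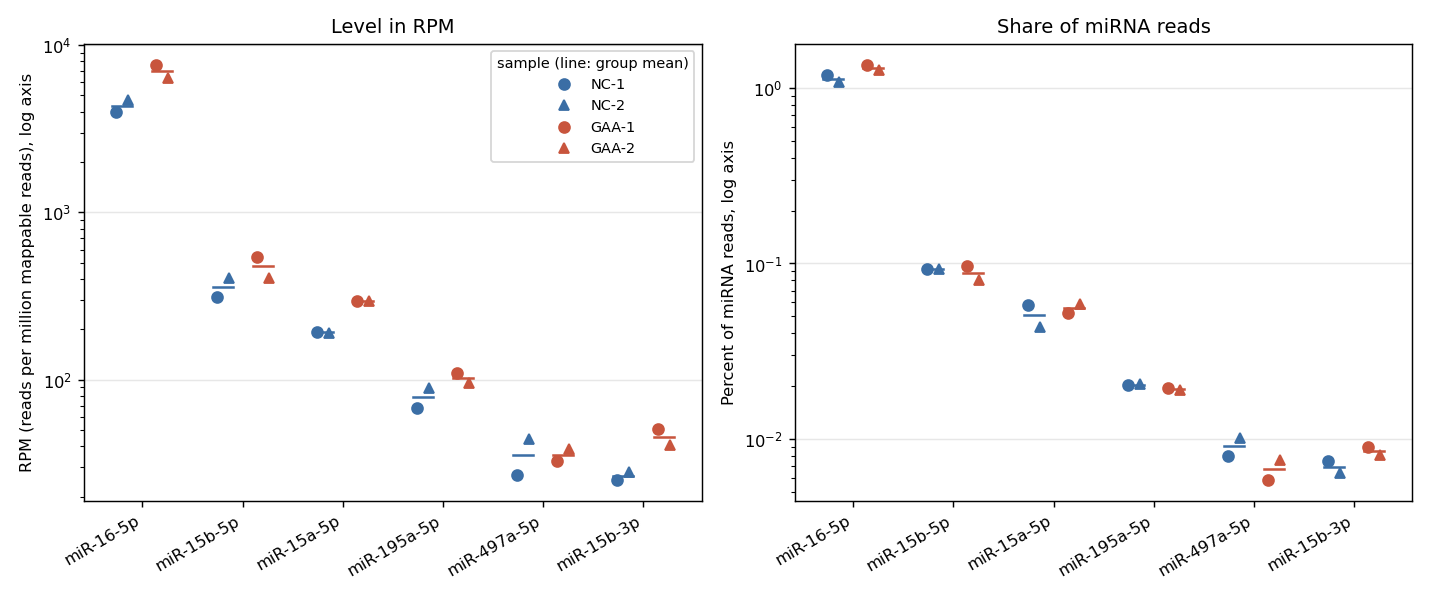
Level of each member in RPM (left) and as percent of miRNA reads (right), both on log axes, with circles for the first and triangles for the second sample of NC (blue) and GAA (red) and a line at the group mean. In RPM both GAA samples lie above both NC samples for all members but miR-497a-5p, whereas the shares of the groups lie close together, with miR-16-5p above 1% in every sample. For comparison, 64.4% of the well-covered miRNAs have this order in RPM.

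The study applied its thresholds (FDR below 0.01 and an absolute log2 fold change above 1) to read counts in edgeR, a different test. In limma, no member passed these thresholds between GAA and NC in RPM. Over all 869 miRNAs 0 (0%) passed as well, while 152 (17.5%) had an unadjusted p below 0.05. Among the members 3 of 6 had such a p. The log2 fold change in limma was 0.63 for miR-15a-5p (SE 0.14, adjusted p = 0.206). It was 0.68 for miR-16-5p (SE 0.20, adjusted p = 0.254) and 0.76 for miR-15b-3p (SE 0.19, adjusted p = 0.219). The change of the other guides was 0.40 for miR-15b-5p, 0.39 for miR-195a-5p and 0.04 for miR-497a-5p, with adjusted p from 0.398 to 0.946 in limma. The interval of miR-497a-5p was wide, from -0.79 to 0.87 on the log2 scale. With median-of-ratios size factors in place of the mappable reads, the changes of miR-15b-5p, miR-195a-5p and miR-497a-5p turned to -0.13, -0.13 and -0.48. Those of miR-15a-5p, miR-16-5p and miR-15b-3p stayed positive but shrank to 0.10, 0.15 and 0.24. Single samples also moved the smaller changes in RPM. That of miR-15b-5p was 0.22 without NC-1, 0.19 without GAA-1 and 0.61 without GAA-2, and that of miR-195a-5p was 0.20 without NC-1 and 0.59 without NC-2. That of miR-497a-5p was -0.31 without NC-1, 0.39 without NC-2, 0.15 without GAA-1 and -0.07 without GAA-2.

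An order with both GAA samples above both NC samples was held in RPM by 5 of 6 members and by 64.4% of the 323 well-covered miRNAs (38.6% of all 869). The reverse order was held by 0 members, by 2.79% of the well-covered miRNAs and by 5.52% of all. The median log2 fold change in RPM was 0.40 for the 5 guides and 0.49 for the well-covered miRNAs, and 91.6% of the well-covered miRNAs had a positive change. The exact permutation test of 2 against 2 samples cannot give a p below 0.33 for any single value.

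As a share of miRNA reads, the groups came much closer. miR-16-5p took 1.18% (95% Wilson interval 1.17% to 1.20%) and 1.08% (1.06% to 1.09%) of the miRNA reads without GAA. With GAA it took 1.35% (1.34% to 1.37%) and 1.26% (1.24% to 1.27%). These intervals cover counting error only and did not overlap even between replicates, so the samples differed by more than counting error. Both GAA shares of miR-16-5p lay above both NC shares, and the log2 fold change was 0.21 (95% interval -0.25 to 0.66, adjusted p = 0.781 in limma). miR-15b-3p showed the same order, with 0.00750% and 0.00644% in NC and 0.00900% and 0.00814% in GAA.

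The chromosome 11 guides had the opposite order. miR-195a-5p took 0.0203% and 0.0205% in NC and 0.0196% and 0.0191% in GAA, a separation of the groups that was small beside the Wilson interval of each sample (0.0182% to 0.0225% in NC-1). miR-497a-5p took 0.00804% and 0.0102% in NC and 0.00584% and 0.00765% in GAA, and the log2 fold change was -0.43 (95% interval -0.99 to 0.12, adjusted p = 0.767 in limma). It was -0.26 without NC-2 and -0.24 without GAA-1, and stayed negative with any 1 sample left out, down to -0.62. The change of miR-195a-5p was -0.08, and turned to 0.008 when the 5 most abundant miRNAs were left out of the divisor. miR-15a-5p and miR-15b-5p overlapped between the groups, at 0.0434% to 0.0590% and 0.0806% to 0.0967%, respectively.

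Thus 2 of 6 members had higher and 2 of 6 lower shares in both GAA samples, against 22.9% and 19.8% of the well-covered miRNAs and 18% and 13.5% of all 869. In limma 0 members passed the thresholds, against 1 of all 869 miRNAs (0.115%), miR-208b-3p, which is named here after its value was seen. On this scale 0 members had an unadjusted p below 0.05, against 8.06% of all miRNAs. The lowest adjusted p among the members was 0.767. The median log2 fold change of the 5 guides was -0.08, and that of the well-covered miRNAs 0.02.

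**Figure D2:**
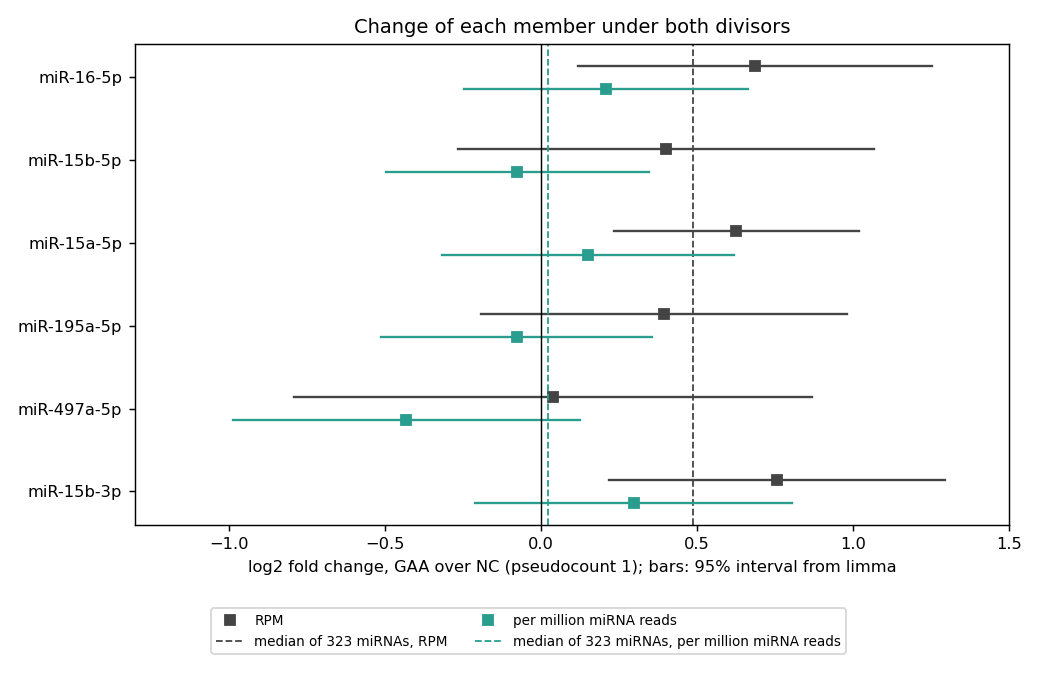
Log2 fold change of GAA over NC for each member in RPM (dark) and as a share of miRNA reads (green), with 95% intervals from limma, and dashed lines at the median of the 323 well-covered miRNAs. The RPM values lie around their dashed line at 0.49, and the intervals on the share scale all cross 0. With median-of-ratios size factors the RPM values of miR-15b-5p, miR-195a-5p and miR-497a-5p lie below 0.

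The 5 guides together summed to 4580 and 5426 RPM in NC against 8607 and 7173 RPM in GAA. Their joint share of miRNA reads was 1.36% and 1.24% in NC and 1.53% and 1.42% in GAA. Most of this sum was miR-16-5p. Without it, the other 4 guides took 0.180% and 0.167% in NC and 0.175% and 0.166% in GAA, and the groups overlapped. The other 4 guides differed by -0.02 on the log2 scale of shares, compared with 0.18 for all 5.

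The make-up of the guides was compared within each sample, where the divisor cancels. miR-16-5p accounted for 86.8% and 86.6% of the reads of the 5 guides in NC and 88.6% and 88.3% in GAA. The remaining part was smaller in GAA for miR-15b-5p, at 6.86% and 7.45% in NC and 6.33% and 5.67% in GAA. miR-195a-5p accounted for 1.49% and 1.65% in NC and 1.28% and 1.34% in GAA. miR-497a-5p accounted for 0.590% and 0.818% in NC and 0.382% and 0.537% in GAA, whereas miR-15a-5p overlapped between the groups, at 3.43% to 4.24%. The 5 proportions sum to the whole, so a higher proportion of miR-16-5p and lower proportions of the others are not separate observations. Separation within a sample was common, since the ratio of 2 miRNAs did not overlap for 46.7% of all pairs of the well-covered miRNAs.

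**Figure D3:**
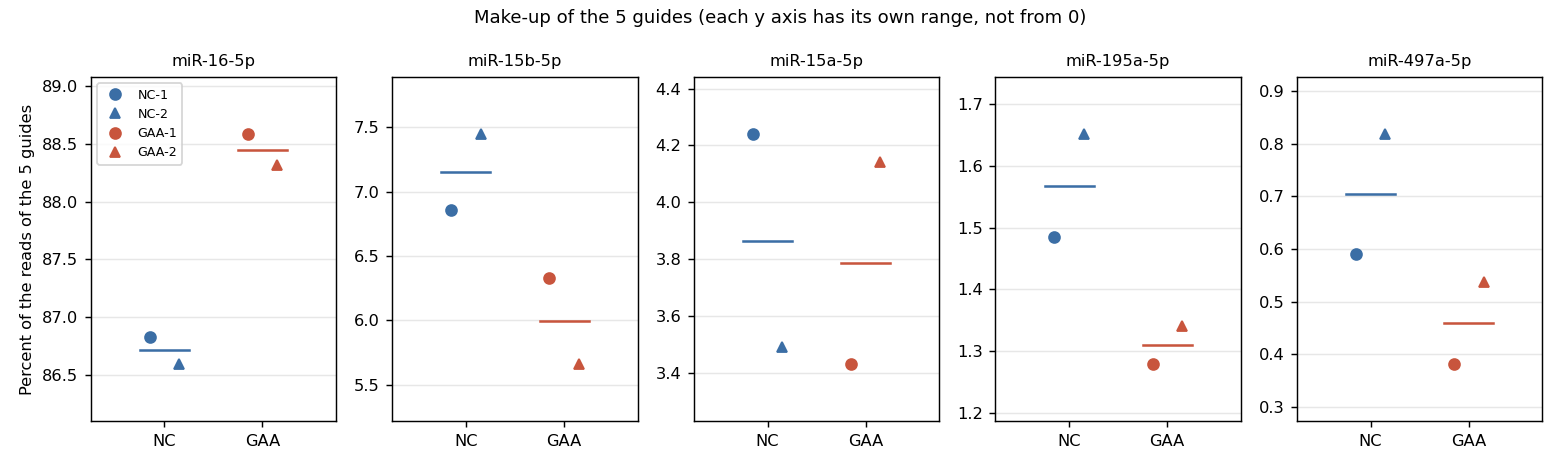
Percent of the reads of the 5 guides taken by each guide in each sample, with a line at the group mean and a separate y axis range in each panel that does not start at 0. miR-16-5p was at 86.6% and 86.8% in NC and at 88.3% and 88.6% in GAA, and only miR-15a-5p overlapped between the groups. For comparison, the ratio of 2 miRNAs did not overlap for 46.7% of all pairs of the well-covered miRNAs.

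Of the 10 ratios between 2 guides, 4 did not overlap between the groups. Among all pairs of the well-covered miRNAs, 46.7% did not overlap. For each read of miR-16-5p there were 0.0790 and 0.0860 reads of miR-15b-5p in NC and 0.0714 and 0.0641 in GAA. The ratio of miR-16-5p to miR-195a-5p, the guide nearest to it in sequence, was 58.5 and 52.4 in NC and 69.2 and 65.9 in GAA. The ratio of the adjacent miR-195a-5p and miR-497a-5p overlapped, at 2.52 and 2.02 in NC and 3.35 and 2.50 in GAA. That of miR-15b-5p to miR-15a-5p, which stand next to the separate copies of Mir16, also overlapped, at 1.62 and 2.13 in NC and 1.84 and 1.37 in GAA.

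The opposite arms were read to compare the precursors. In each of the precursors with a single-copy guide the 5p arm dominated. The reads of miR-15b-5p exceeded those of miR-15b-3p by 12.5- and 14.4-fold in NC and by 10.7- and 9.91-fold in GAA. The 3p arm was thus 7.42% (95% Wilson interval 6.26% to 8.78%) and 6.50% (5.51% to 7.66%) of the reads of both arms in NC. It was 8.51% (7.61% to 9.51%) and 9.17% (8.10% to 10.4%) in GAA, where both shares were above those of NC, but among the intervals only those of NC-2 and GAA-2 did not overlap. The 3p arm of miR-15a was rarer, with 8 to 16 reads per sample and 79.7 to 112 reads of miR-15a-5p for each. The reads of miR-195a-3p numbered 6 and 18 in NC and 41 and 23 in GAA, and their proportion to the 5p arm overlapped between groups. miR-497a-3p had 1 to 4 reads, so that no difference in it was detectable at this depth.

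The 3p arms of the Mir16 copies differ in sequence and were counted separately, so they are shown, with bases 2 to 8 in capitals, as the reads that tell the copies apart.
miR-16-1-3p: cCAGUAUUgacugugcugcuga
miR-16-2-3p: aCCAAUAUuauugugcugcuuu
The reads of miR-16-1-3p, from chromosome 14, numbered 30 and 48 in NC against 50 and 28 in GAA. Those of miR-16-2-3p, from chromosome 3, numbered 21 and 34 in NC against 84 and 43 in GAA. The ratio of miR-16-2-3p to miR-16-1-3p was 0.700 and 0.708 in NC and 1.68 and 1.54 in GAA. By these few reads, the chromosome 14 arm was the more frequent in both NC samples and the chromosome 3 arm in both GAA samples. As a part of both arms, miR-16-1-3p made up 58.8% (95% Wilson interval 45.2% to 71.2%) and 58.5% (47.7% to 68.6%) in NC and 37.3% (29.6% to 45.7%) and 39.4% (28.9% to 51.1%) in GAA. Among these intervals only those of NC-2 and GAA-1 did not overlap, and only that of GAA-1 excluded equal reads of both arms. Of 12 ratios compared, this among them, 5 did not overlap between the groups, against 46.7% of all pairs of the well-covered miRNAs. In limma on RPM miR-16-1-3p differed by -0.21 on the log2 scale (SE 0.40, adjusted p = 0.743) and miR-16-2-3p by 0.84 (SE 0.43, adjusted p = 0.385). Both arms together amounted to 1.98 to 3.69 reads per 1000 reads of miR-16-5p.

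**Figure D4:**
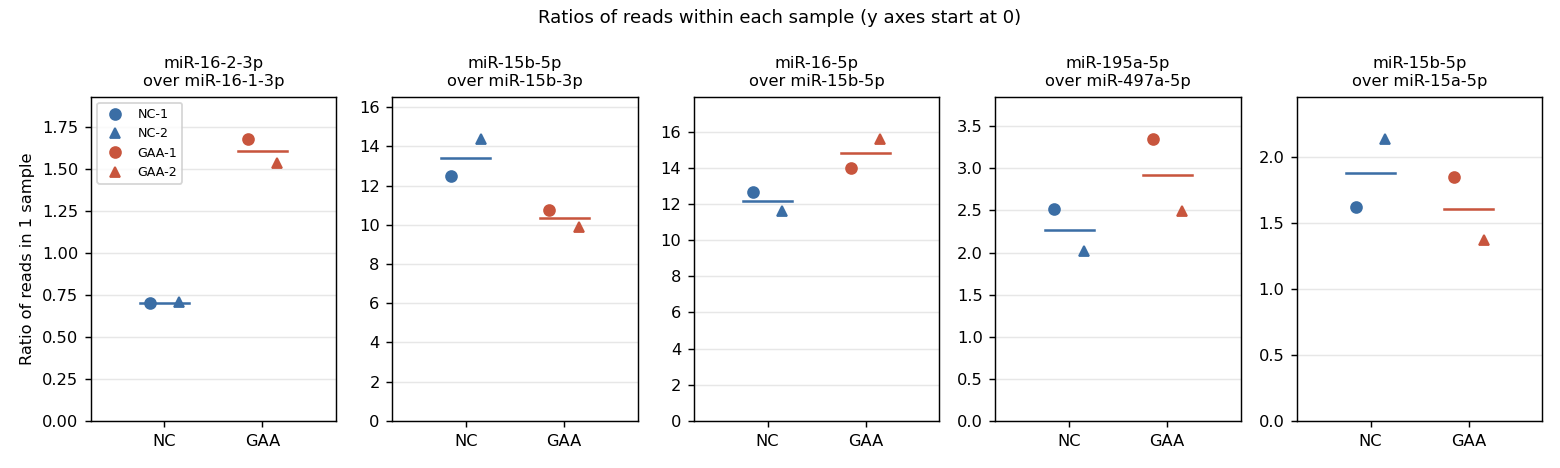
Ratio of the reads of 2 miRNAs within each sample, with lines at the group means and y axes from 0. The arms of the Mir16 copies lie at 0.700 and 0.708 in NC and at 1.68 and 1.54 in GAA, and the ratios of miR-195a-5p to miR-497a-5p and of miR-15b-5p to miR-15a-5p overlap between the groups. Among all pairs of the well-covered miRNAs, 46.7% of the ratios do not overlap.

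The other detected miRNAs with the same seed were miR-322-5p and miR-195b. miR-322-5p, encoded beside miR-503 and known for acting on the cell cycle in differentiating myoblasts, differs from the guides after the seed, which is again in capitals.
miR-322-5p: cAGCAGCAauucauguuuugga
Its level was 899 and 1050 RPM in NC, and 1272 and 803 RPM in GAA, above all the guides but miR-16-5p. Its groups overlapped in RPM, and its share of miRNA reads was 0.268% and 0.241% in NC and 0.226% and 0.159% in GAA. The ratio of miR-16-5p to miR-322-5p was 4.42 and 4.47 in NC and 5.99 and 7.89 in GAA. With miR-322-5p and miR-195b added to the guides, the miRNAs of this seed took 1.63% and 1.48% of the miRNA reads in NC and 1.75% and 1.58% in GAA, and the groups overlapped. miR-195b had 3 reads and 1 read in NC and 0 in each GAA sample, which is at or below the floor of 3 reads, so that no fold is given, although it stayed in the fit over all miRNAs. miR-497b was not found in any sample. Of the 7 other arms and paralogs of these precursors, 6 were detected, and 2 had at least 10 reads in every sample. In limma 0 of them passed the thresholds on either scale. Over all 869 miRNAs 0 passed in RPM and 1 (0.115%) in shares, so this count says little about these arms.

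The family was set beside other miRNAs known for a role in the cell cycle. Among 13 miRNAs known for restraining it (the miR-34 and miR-449 guides, miR-26a-5p, miR-322-5p, miR-503-5p and let-7 guides), 0 passed the thresholds in limma, and both GAA samples were above both NC samples in RPM for 6, with a median log2 fold change of 0.32. This order was held by 64.4% of the well-covered miRNAs, to which all 13 belong. In shares 0 were higher and 5 lower in both GAA samples, namely miR-34a-5p, miR-322-5p, miR-503-5p, let-7b-5p and let-7c-5p, against 22.9% higher and 19.8% lower among the well-covered miRNAs. miR-34a-5p, induced by p53, averaged 0.0353% ± 0.0014 (SD, n = 2) without GAA and 0.0316% ± 0.0012 (SD, n = 2) with it (log2 fold change -0.16, adjusted p = 0.781 in limma). In RPM it was higher in both GAA samples. The shares of miR-34b-5p, miR-34c-5p and miR-449a-5p overlapped between the groups. Among 12 miRNAs known from proliferating cells (miRNAs of the miR-17-92 and miR-106b-25 clusters, miR-221-3p, miR-222-3p and miR-21a-5p), 0 passed the thresholds, and 7 were higher in both GAA samples in RPM, against 64.4% of the well-covered miRNAs, with a median of 0.54. In shares 5 of the 12 were higher in both GAA samples (miR-92a-3p, miR-106b-5p, miR-25-3p, miR-221-3p and miR-222-3p) and miR-93-5p was lower, against 22.9% and 19.8% of the well-covered miRNAs, with a median of 0.08. miR-222-3p, known for repressing the cell cycle inhibitor p27, averaged 0.0755% ± 0.0013 (SD, n = 2) without GAA and 0.130% ± 0.0389 (SD, n = 2) with it (log2 fold change 0.75, adjusted p = 0.417 in limma). The medians of the same scales over the well-covered miRNAs were 0.49 and 0.02. Over all 869 miRNAs 0 passed the thresholds in RPM and 1 (0.115%) in shares, so a count of 0 says little about either list. An unadjusted p below 0.05 in limma was reached by 6 of the 12 in RPM and 2 in shares. It was reached by 0 of the 13 on either scale, against 17.5% of all 869 miRNAs in RPM and 8.06% in shares.

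Among 127 other miRNAs with a mean of at least 100 RPM, those nearest to the summed guides in the pattern of their share over the 4 samples were miR-30a-3p, let-7d-3p and miR-470-5p. Their Euclidean distances from that pattern on the centred log2 scale were 0.05, 0.09 and 0.11, against a median of 0.44. miR-30a-3p, for example, took 0.0307% and 0.0268% of the miRNA reads in NC and 0.0329% and 0.0306% in GAA. With 4 samples, such likeness is a description of these libraries only.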

How the data were processed

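Small RNA of 2 NC and 2 GAA samples was sequenced on an Illumina HiSeq instrument. After read filtering, the authors aligned to GRCm38.p5, quantified known miRNAs with miRDeep2 and miRBase 21.0, and deposited log2 values, log2(RPM + 1). The scale was inferred from the deposited numbers, and a missing miRNA was set to 0. The RPM of 1 read (0.177 to 0.211) returned whole reads for 95.6% of the values within 0.02 of a read. The recovered reads were used for depth, filters, ratios and shares. The groups were tested by limma 3.58.1 under R 4.3.3 (linear models moderated with a trend, pseudocount of 1, no filter) over 869 miRNAs, in RPM and per 1000000 miRNA reads, with Benjamini-Hochberg adjustment. The fold changes understate those of low miRNAs. The fit was tested on simulated data with changes larger than that of any member. The simulation therefore does not show whether changes of the members' size would be found. Of the 869 names, 717 matched the RefSeq table.

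Members, lists and ratios were chosen with earlier results of these data known. The named miRNAs are the members, their other arms, miRNAs of the same seed, lists of cell cycle and proliferation miRNAs, and the 3 nearest in pattern. Replicates differed by more than counting error, with a chi-square per degree of freedom of 135 in NC and 117 in GAA. No batch is given in the labels. Alternatives were the replicate block, another pseudocount, a filter of 10 reads, median-of-ratios size factors, no trend, a divisor without the 5 most abundant miRNAs, an FDR of 0.05, and each sample left out. The crossed block and the scalings of the summed guides were added after seeing the data. Figures were drawn with matplotlib 3.10.9.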

Additional observations from a re-analysis of the deposited data

How the results depend on the processing

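No member passed the thresholds under any alternative, on either scale, with adjusted p from 0.0916 to 1 in limma. The direction of a member differed from the value reported in 5 of 60 refits in RPM and 4 of 66 in shares. The cause was not tested. Refits with either block, the filter of 10 reads or no trend keep the fold change as it is, so they could not reverse it. The refit with size factors is the same fit on both scales and is counted in each. In RPM, median-of-ratios size factors gave -0.13 for miR-15b-5p, -0.13 for miR-195a-5p and -0.48 for miR-497a-5p on the log2 scale. miR-497a-5p ranged from -0.31 (without NC-1) to 0.39 (without NC-2) with 1 sample left out, and was -0.07 without GAA-2. In shares, a divisor without the 5 most abundant miRNAs gave 0.0105 for miR-15b-5p and 0.008 for miR-195a-5p. With 1 sample left out, miR-15a-5p ranged from -0.0557 (without NC-2) to 0.36, and miR-15b-5p from -0.21 to 0.0555 (without GAA-2). The log2 difference of the summed guides was 0.66 in RPM, 0.18 per miRNA reads, 0.27 without the 5 most abundant and 0.13 with size factors. miRNAs past the thresholds numbered 0 in RPM and 1 with size factors. In shares they numbered 1, and 0 with a pseudocount of 0.1, with the filter of 10 reads, without the trend and with any 1 sample left out (0 to 0). Samples with the same number did not deviate together (r = -0.15 over 323 miRNAs, on both scales), so the numbers were not taken as pairs. The replicate block gave 6 in shares and 0 in RPM, and the crossed block, added after seeing the data, 6 and 0. With 1 sample left out, the lone sample of its group is assumed to vary like the other group. Depth limits miR-497a-3p and miR-195b most.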
